A study of Mus musculus with 37 samples.

Results

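The livers of mice aged 10 months were compared in a design with 2 genetic changes, each present alone, together or not at all, and the question was which transcripts in the combined genotype departed from the sum of the single changes. All 16 liver libraries of the 37 in the series entered the comparison, chosen by tissue label, and the 21 cortex libraries served as a second tissue. The groups were TMEM106B-/-TDP-43Q331K (the combined genotype), TMEM106B-/-, TDP-43Q331K and WT, with 4 liver libraries each. The combined genotype carries both changes, TMEM106B-/- lacks the lysosomal membrane protein TMEM106B per its label, and TDP-43Q331K carries a mutant form of the RNA-binding protein TDP-43. The labels give the age and the genotype of the mice. They do not give the strain, the sex, how the alleles were made, whether the TDP-43Q331K allele was carried in 1 or 2 copies, or whether libraries of a group are from different mice. The p-values therefore describe the spread among these libraries, which may be technical.

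TMEM106B sits in the membrane of late endosomes and lysosomes, takes part in their acidification and transport, and its gene modifies the risk of frontotemporal dementia. TDP-43 binds RNA in the nucleus, governs splicing and RNA stability, and the Q331K mutation is linked to amyotrophic lateral sclerosis. The mouse liver differs between the sexes in many transcripts of steroid, drug and lipid handling, and this difference is set largely by the pattern of growth hormone release acting through STAT5b.

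The interaction is (TMEM106B-/-TDP-43Q331K minus TDP-43Q331K) minus (TMEM106B-/- minus WT) on the log2 scale. A positive value means that the combined genotype lay above the sum of the single log2 changes, and a negative value that it lay below. A sum of log2 changes is a product of folds, so for the main genes the level that such a product predicts is given, and beside it the level that adding the differences in counts scaled to 1 M per library (CPM) predicts. Errors of log2 values are standard errors (SE) and errors of CPM are standard deviations (SD, n = 4). A gene was called where edgeR's quasi-likelihood test gave an adjusted p under 0.05 over all 16710 genes tested. Liver depth was 50.5 to 74.1 M counts a library, of which mitochondrial transcripts took 3.55 to 6.62%. All 16 livers carried the Y-linked transcript Ddx3y at 46.0 to 80.4 CPM and held at most 0.389 CPM of Xist, the pattern of male tissue. A few livers stood apart in acute phase transcripts: the serum amyloid gene Saa1 was at 2325 CPM in replicate 1 of the combined genotype, 2550 CPM in TMEM106B-/- replicate 4 and 2159 CPM in WT replicate 2, against 15.4 to 354 CPM in the remaining livers. Without these 3 livers, left out after the data were seen, 110 genes were called for the interaction, 62 of them among the 115 described here; of the genes named here by rule, Sult1e1 (adjusted p = 0.0558), Ugt2b38 (0.0511), Selenbp2 (0.0734), Cyp2b13 (0.140), Cyp2b9 (0.107), Crat (0.0799), Map1lc3a (0.0610), Clock (0.0958) and C030013C21Rik (0.0676) then missed the threshold. Tested on the linear CPM scale, against the sum of differences and not the product of folds, 20 of 41 called genes named by rule missed the threshold. Among them were Hsd3b5 (adjusted p = 0.186), Mup20 (0.169), Ntrk2 (0.102), Wfdc2 (0.122), Capn8 (0.0677), Rad51b (0.0767), Tceal8 (0.0522), Dnase2a (0.0522), Tuba8 (0.0727), Renbp (0.0512), Ugt2b38 (0.0548), Selenbp2 (0.191), Cyp2b13 (0.131), Crat (0.0650), Clock (0.116) and Ly6d (0.172).

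The RNA of the gene named in the TMEM106B-/- label did not follow that label. Tmem106b (ENSMUSG00000029571, GRCm38 chr6:13069759-13089269, plus strand) was at 122, 139, 143 and 136 CPM in the combined livers and at 114, 129, 112 and 107 CPM in TMEM106B-/- livers. It was at 113, 102, 63.6 and 89.3 CPM in TDP-43Q331K livers and at 113, 107, 87.5 and 78.5 CPM in WT livers. The libraries labelled TMEM106B-/- were not lower than the others, and the interaction of Tmem106b was 0.30 ± 0.21 (adjusted p = 0.515). In edgeR it was called higher in the combined than in TDP-43Q331K livers (0.56 ± 0.15, adjusted p = 0.0497). Over WT it was not called in the combined (0.48 ± 0.15, adjusted p = 0.0625) or TMEM106B-/- livers (0.26 ± 0.15, adjusted p = 0.448). Gene-level counts show neither which exon was altered nor whether protein was made, so the genotypes rest on the labels, and each group name here stands for the libraries labelled so. Tardbp, the gene of TDP-43, averaged 109 ± 10.1 CPM in the combined livers, 107 ± 3.49 in TMEM106B-/-, 106 ± 7.74 in TDP-43Q331K and 116 ± 18.8 in WT livers, with an interaction of 0.16 ± 0.15 (adjusted p = 0.649).

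The interaction was called for 115 of 16710 genes (0.688%), 57 above the sum (0.341%) and 58 below it (0.347%). The positive interactions ran up to 6.89 with a median of 1.31, the negative ones reached -7.85 with a median of -1.86, and the median over all genes was -0.0055. DESeq2 called 600 genes (3.67% of those it gave an adjusted p) and limma-voom 320 (1.92%). EdgeR gave an unadjusted p under 0.05 for 2729 of the 16710 genes, the background for the unadjusted counts of the lists below. The combined level was 1 or more log2 units above WT in 17 of the 57 positive genes and 1 or more below WT in 18 of the 58 negative genes. In 11 genes the combined change had the sign of the sum and was larger. In 32 it had the same sign and was smaller, in 44 it had the opposite sign, and in 28 both single changes were under 0.5 in size. Among the 57 positive genes both single genotypes had fitted levels below WT in 43, and among the 58 negative genes both had fitted levels above WT in 48. The interaction sets the single genotypes against WT and the combined one, so the call itself favours such genes. The shares of these classes over all genes are not given here. A combined level within 0.5 of WT after both single changes had gone one way occurred in 53 of the 115 genes (46.1%), a share near that over all genes tested (50.6%). Over WT, 46 of the 115 genes were called in the combined livers (7.04% of all genes tested), 22 in TMEM106B-/- livers (1.05%) and 19 in TDP-43Q331K livers (0.263%). The interaction uses the same 16 libraries as these contrasts, so the counts describe the called genes and are no further evidence for them.

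**Figure D1:**
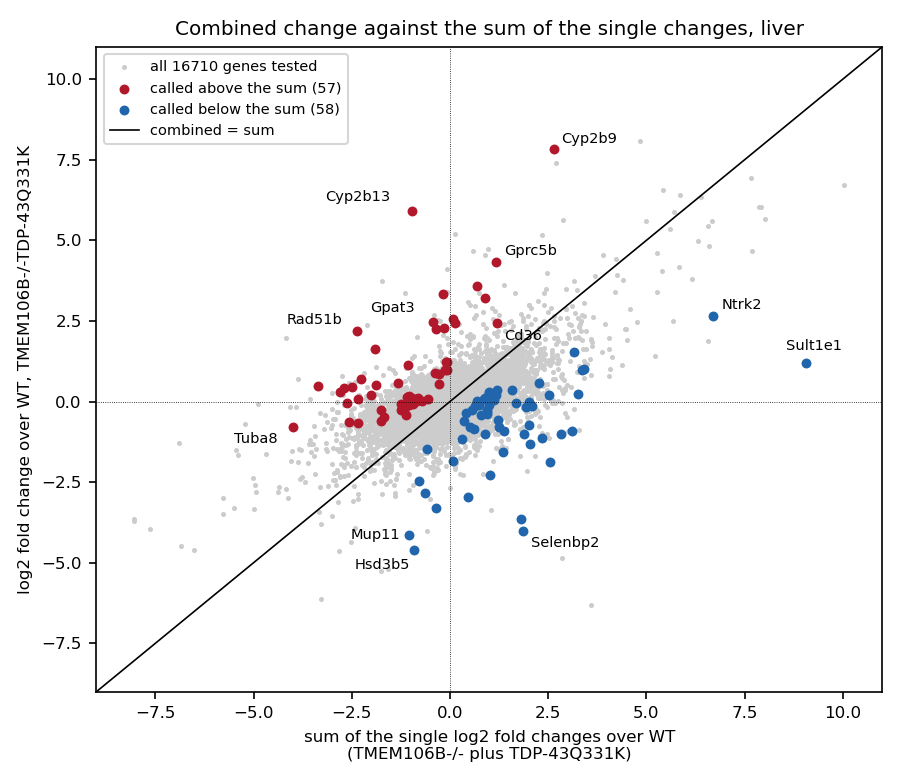
Each point is a gene; the horizontal axis is the sum of the log2 fold changes over WT in TMEM106B-/- and TDP-43Q331K livers, the vertical axis the log2 fold change over WT in TMEM106B-/-TDP-43Q331K livers, and the line marks equality. Red marks the 57 genes called above the sum and blue the 58 called below it; many lie near 0 on the vertical axis, while Cyp2b9, Cyp2b13, Gprc5b, Hsd3b5 and Mup11 lie far from it.

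Among transcripts that male mouse liver makes in excess of female liver, all calls were below the sum. Of 36 tested genes of a male-biased list, 6 were called below the sum and none above, and the median interaction of the list was -0.86. Of all genes tested, 0.347% were called below the sum and 0.341% above. DESeq2 called 11 of the 36 and limma-voom 9, also below the sum alone. In both directions DESeq2 called 3.67% of the genes it gave an adjusted p, and limma-voom 1.92% of all genes. These shares are the background for every list below. All lists were chosen with earlier results of these data known. Their counts and medians therefore describe the members and are no independent evidence for a list. The 6 were Hsd3b5, Mup20, Cyp4a12b, Ugt2b38, Selenbp2 and Susd4. Hsd3b5 (ENSMUSG00000038092, GRCm38 chr3:98618634-98630252, minus strand), a steroid dehydrogenase family member of male liver, had the smallest p of all genes. It stood at 4.76, 11.2, 7.63 and 8.82 CPM in the combined livers and at 141, 93.9, 156 and 104 CPM in TMEM106B-/- livers. It stood at 135, 189, 140.1 and 196 CPM in TDP-43Q331K livers and at 249.9, 171, 191 and 174 CPM in WT livers. All 4 combined livers were far below the lowest of the other 12. The combined change over WT was -4.60 ± 0.26 (adjusted p = 7.00e-08), against -0.67 ± 0.23 in TMEM106B-/- and -0.25 ± 0.23 in TDP-43Q331K livers, neither of which was called. The interaction was -3.68 ± 0.33 (adjusted p = 6.88e-05). The product of the single folds predicts 104 CPM and the sum of the differences 92.4 CPM, and the combined livers averaged 8.099 ± 2.67 CPM.

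Mup20 (ENSMUSG00000078672, GRCm38 chr4:62050234-62054158, minus strand) encodes darcin, a male urinary pheromone protein. Its level was 1263, 2019, 1727 and 1702 CPM in the combined livers and 5374, 5123, 8269 and 7176 CPM in TMEM106B-/- livers. Its level was 7342, 8719, 6491 and 8238 CPM in TDP-43Q331K livers and 10434, 9299, 8627 and 8724 CPM in WT livers. The 4 combined livers again lay below all others, and the interaction was -1.68 ± 0.24 (adjusted p = 0.00385), with 5385 CPM predicted by the product and 4912 CPM by the sum. A pair of other major urinary protein genes, named after their values were seen, had negative interactions too: Mup11 had an interaction of -3.12 ± 0.53 (adjusted p = 0.0149) and Mup14 of -2.19 ± 0.39 (adjusted p = 0.0162). Mup11 was at 8.84, 4.55, 7.05 and 18.8 CPM in the combined livers, 31 to 73.1 in TMEM106B-/-, 178 to 351 in TDP-43Q331K and 148 to 194 in WT livers. Mup14 was at 13.6, 10.6, 8.61 and 25.3 CPM in the combined livers, 40.6 to 82.04 in TMEM106B-/-, 98.9 to 111 in TDP-43Q331K and 88.1 to 133 in WT livers. Major urinary protein genes are near-identical copies that share reads, so the split of counts among them is uncertain. Their promoters are shown because both copies were lowest in the combined livers. Bases in capitals are those with no identical partner in the alignment of the pair, and 270 of 300 bases were identical (90.0%). The capitals that open Mup14 and close Mup11 are ends left unaligned because the windows are offset. The identity of the shared stretch is therefore higher. RefSeq gives them on GRCm38.p6 at chr4:60662346-60662645, minus strand, for Mup11 and at chr4:61303949-61304248, minus strand, for Mup14, from 250 bases before to 50 after the start, read 5′ to 3′ on the gene's strand.
Mup11: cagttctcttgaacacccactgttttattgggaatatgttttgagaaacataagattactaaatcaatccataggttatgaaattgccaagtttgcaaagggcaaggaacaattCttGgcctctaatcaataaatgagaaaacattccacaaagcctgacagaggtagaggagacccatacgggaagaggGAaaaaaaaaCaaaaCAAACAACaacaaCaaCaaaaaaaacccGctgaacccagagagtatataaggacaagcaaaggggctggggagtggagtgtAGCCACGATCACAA
Mup14: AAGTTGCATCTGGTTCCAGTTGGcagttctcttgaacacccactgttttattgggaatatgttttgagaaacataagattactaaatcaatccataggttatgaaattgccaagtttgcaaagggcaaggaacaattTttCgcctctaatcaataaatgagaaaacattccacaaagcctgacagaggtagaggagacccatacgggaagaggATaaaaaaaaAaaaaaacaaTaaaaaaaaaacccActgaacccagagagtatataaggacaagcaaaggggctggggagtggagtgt

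Cyp4a12b, a fatty acid hydroxylase of male liver and kidney, was at 3.66, 5.81, 12.4 and 11.5 CPM in the combined livers and at 42.8, 49.9, 48.9 and 48.3 CPM in TMEM106B-/- livers. It was at 80.5, 69.6, 57.3 and 69.02 CPM in TDP-43Q331K livers and at 47.2, 28.6, 42.01 and 43.1 CPM in WT livers. Here TDP-43Q331K livers were above WT and the combined livers below every other liver, with an interaction of -3.29 ± 0.40 (adjusted p = 0.00193). Susd4, a complement regulator, was at 11.01, 10.3, 21.2 and 19.1 CPM in the combined livers, 25.8 to 34.7 in TMEM106B-/-, 46.4 to 54.9 in TDP-43Q331K and 31.8 to 35.4 in WT livers, so that TDP-43Q331K livers were again above WT and the combined livers below all others, with an interaction of -1.46 ± 0.26 (adjusted p = 0.0149). In Ugt2b38, a glucuronosyltransferase, the combined livers held 0.667, 0.482, 1.09 and 1.54 CPM, against 1.903 to 25.6 in TMEM106B-/-, 28.4 to 61.01 in TDP-43Q331K and 5.59 to 18.5 in WT livers. Its interaction was -5.45 ± 0.93 (adjusted p = 0.0178), and leaving out replicate 2 of the combined genotype lost the call (adjusted p = 0.0552). Selenbp2 varied widely between livers of the same genotype. It was at 12.9, 8.12, 11.5 and 27.2 CPM in the combined livers, 84.8 to 659 in TMEM106B-/-, 276 to 1434 in TDP-43Q331K and 90.2 to 369 in WT livers. Its interaction of -5.88 ± 1.04 (adjusted p = 0.0223) missed the threshold when WT replicate 2 or replicate 1, 2 or 3 of the combined genotype was left out (0.0511 to 0.0675). Hsd3b5, Mup20, Cyp4a12b and Susd4 stayed called without any single liver, but of these 4 only Cyp4a12b and Susd4 were called on the linear CPM scale.

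**Figure D2:**
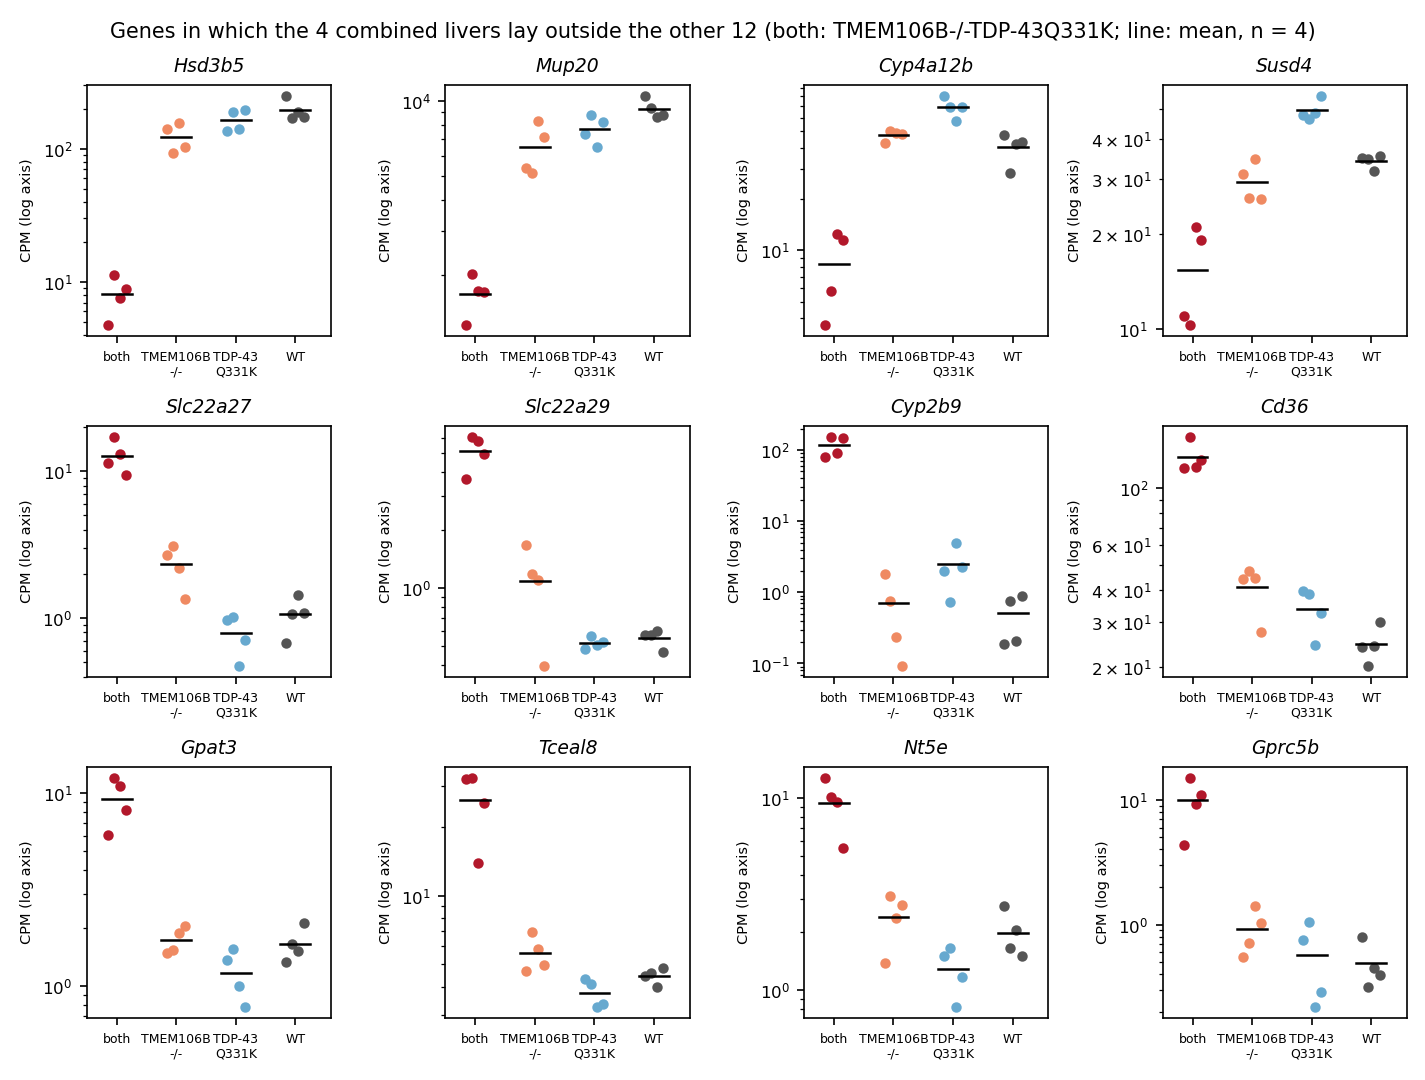
CPM (log axis) of 12 called genes in each liver, with TMEM106B-/-TDP-43Q331K (both), TMEM106B-/-, TDP-43Q331K and WT from left to right; points are libraries and lines are group means. In Hsd3b5, Mup20, Cyp4a12b and Susd4 all combined livers lie below the other 12, and in the remaining 8 genes all lie above them.

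Female-biased transcripts moved both ways. Of 40 tested genes of a female-biased list, 5 were called above the sum (Cyp2b9, Cyp2b13, Slc22a27, Slc22a29 and Cd36) and 2 below it (Sult1e1 and Ntrk2), and the median interaction was 0.67. Over all genes tested the shares were 0.341% above and 0.347% below. DESeq2 called 9 above and 2 below, and limma-voom 6 above and 1 below. Slc22a27 (ENSMUSG00000067656, GRCm38 chr19:7864388-7966027, minus strand), an organic anion transporter, was at 11.3, 17.1, 13.2 and 9.49 CPM in the combined livers and at 2.71, 3.11, 2.21 and 1.35 CPM in TMEM106B-/- livers. It was at 0.973, 1.01, 0.473 and 0.708 CPM in TDP-43Q331K livers and at 0.675, 1.07, 1.43 and 1.09 CPM in WT livers. The combined livers stood above the other 12, with 12.8 ± 3.26 CPM observed, 1.74 predicted by the product and 2.07 by the sum. The interaction was 2.88 ± 0.41 (adjusted p = 0.00385). Its relative Slc22a29 was at 3.69, 6.05, 5.76 and 4.95 CPM in the combined livers, 0.397 to 1.68 in TMEM106B-/-, 0.486 to 0.564 in TDP-43Q331K and 0.465 to 0.601 in WT livers, with an interaction of 2.32 ± 0.43 (adjusted p = 0.0184). Leaving out replicate 2 of the combined genotype took its adjusted p to 0.0517. Related Slc22a genes share sequence, so counts may be split between them.

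Cyp2b9 (ENSMUSG00000040660, GRCm38 chr7:26173411-26210661, plus strand), a cytochrome P450 typical of female liver, was at 5.01 CPM or less in every liver outside the combined genotype. It reached 80.1, 153, 90.8 and 148 CPM in the combined livers and 1.79, 0.748, 0.234 and 0.0926 CPM in TMEM106B-/- livers. It reached 2.01, 0.73, 5.01 and 2.25 CPM in TDP-43Q331K livers and 0.1903, 0.759, 0.2098 and 0.903 CPM in WT livers. The combined change over WT was 7.83 ± 0.85 (adjusted p = 0.00017), against 0.38 ± 0.83 in TMEM106B-/- and 2.27 ± 0.76 in TDP-43Q331K livers, neither of them called. The interaction was 5.19 ± 1.08 (adjusted p = 0.0464), with 3.47 CPM predicted by the product and 2.698 CPM by the sum. Its neighbour Cyp2b13 was at 4.91, 4.86, 1.25 and 8.03 CPM in the combined livers, against 0 to 0.189 CPM in the other 12, with an interaction of 6.89 ± 1.42 (adjusted p = 0.0353). In both genes the combined livers lay apart from the other 12, which describes the libraries that gave the calls. Cyp2b13 passed the filter on low counts only through the combined livers, so its separation is no further evidence. Both calls lay near the threshold. Each missed it in 12 of 16 fits that left out 1 liver, with adjusted p up to 0.107 for Cyp2b9 and 0.113 for Cyp2b13. The promoters of the pair, both on GRCm38.p6 from RefSeq, are shown because they are almost the same sequence. Only 50 of the 300 bases lie after the start, and the transcripts were not compared. Reads may be shared between the genes, which was not tested. Capitals mark the bases that differ, and 298 of 300 bases were identical (99.3%). Cyp2b9 is read from chr7:26173159-26173458, plus strand, and Cyp2b13 from chr7:26061245-26061544, plus strand.
Cyp2b9: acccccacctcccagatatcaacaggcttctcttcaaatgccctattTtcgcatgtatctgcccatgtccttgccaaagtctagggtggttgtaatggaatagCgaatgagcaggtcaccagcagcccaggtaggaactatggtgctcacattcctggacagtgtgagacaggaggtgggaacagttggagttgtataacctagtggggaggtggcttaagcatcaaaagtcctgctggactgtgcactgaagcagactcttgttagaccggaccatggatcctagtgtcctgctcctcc
Cyp2b13: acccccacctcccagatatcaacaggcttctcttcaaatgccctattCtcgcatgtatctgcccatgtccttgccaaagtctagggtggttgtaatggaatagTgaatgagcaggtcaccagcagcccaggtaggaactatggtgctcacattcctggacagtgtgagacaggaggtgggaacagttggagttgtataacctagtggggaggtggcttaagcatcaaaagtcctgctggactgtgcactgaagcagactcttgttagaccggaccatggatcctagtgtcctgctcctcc

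The 2 female-biased genes below the sum were higher in a single genotype than in the combined one. Ntrk2, which encodes the TrkB receptor, was at 5.15, 5.54, 9.87 and 5.59 CPM in the combined livers and at 5.03, 5.07, 15.4 and 4.02 CPM in TMEM106B-/- livers. It was at 7.93, 16.6, 20.5 and 15.6 CPM in TDP-43Q331K livers and at 0.934, 0.851, 0.965 and 1.37 CPM in WT livers. It rose over WT in the combined (2.66 ± 0.43, adjusted p = 0.00177), TMEM106B-/- (2.84 ± 0.43, adjusted p = 0.00545) and TDP-43Q331K livers (3.87 ± 0.45, adjusted p = 0.00216). The product of folds predicts 109 CPM and the sum of differences 21.5 CPM, against 6.54 ± 2.23 CPM observed, and the interaction was -4.05 ± 0.58 (adjusted p = 0.00542). Sult1e1, an estrogen sulfotransferase, was at 0.279, 0.241, 0.702 and 0.518 CPM in the combined livers, 0.542 to 1.09 in TMEM106B-/- and 0.02797 to 0.294 in WT livers. It was at 1.67, 16.2, 54.4 and 21.2 CPM in TDP-43Q331K livers, the only group in which it was called over WT (6.95 ± 0.93, adjusted p = 0.0103). Its interaction of -7.85 ± 1.22 (adjusted p = 0.0111) has the largest size of all called genes and a wide error. That call was lost with limma-voom, on the linear CPM scale, with the marker score described below as a covariate and without the 3 livers with high acute phase transcripts. Omd, a small proteoglycan outside these lists, followed the order of Ntrk2: 2.09, 1.81, 2.87 and 4.42 CPM in the combined livers, 2.5 to 5.37 in TMEM106B-/-, 3.75 to 5.31 in TDP-43Q331K and 1.13 to 1.59 in WT livers (interaction -2.38 ± 0.38, adjusted p = 0.00824).

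Known regulators of sex-biased liver transcripts gave no call. None of 38 genes of growth hormone, JAK2-STAT5 and liver sex regulation was called, 4 had an unadjusted p under 0.05, DESeq2 called 2 and limma-voom none, and the list's median interaction was -0.07. The prolactin receptor Prlr, which is in the female-biased list too, had 162, 93.4, 98.2 and 70.6 CPM in the combined livers, 27.3 to 107 in TMEM106B-/-, 30.8 to 40.8 in TDP-43Q331K and 44.8 to 88.4 in WT livers (interaction 1.56 ± 0.51, adjusted p = 0.16). Stat5b and Bcl6 were among the genes tested and not called.

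Gpat3, Cd36 and Crat were called in the lists of lipid genes, and no gene in those of fatty acid and cholesterol synthesis. Of 44 tested PPAR-gamma and lipid droplet genes, 2 were called above the sum and none below, with a median of 0.24. An unadjusted p under 0.05 was given to 17 of them, beside 2729 of all 16710 genes. DESeq2 called 7 above and 1 below, and limma-voom 5 above and 1 below. Gpat3 (ENSMUSG00000029314, GRCm38 chr5:100845713-100899102, plus strand), which catalyses the first step of triglyceride synthesis from glycerol phosphate, was at 6.08, 11.96, 10.9 and 8.16 CPM in the combined livers and at 1.49, 1.55, 1.88 and 2.05 CPM in TMEM106B-/- livers. It was at 1.36, 1.56, 1.001 and 0.784 CPM in TDP-43Q331K livers and at 1.33, 1.67, 1.52 and 2.13 CPM in WT livers. The 4 combined livers lay above the other 12, with a change over WT of 2.48 ± 0.25 (adjusted p = 1.85e-05), against 0.07 ± 0.24 in TMEM106B-/- and -0.50 ± 0.25 in TDP-43Q331K livers. The interaction was 2.91 ± 0.35 (adjusted p = 0.00101), with 1.23 CPM predicted by the product and 1.26 by the sum. The antisense gene 4930458D05Rik overlaps Gpat3 and was also called (interaction 3.52 ± 0.68, adjusted p = 0.0221); whether counting used strand is not given in the sources used here, so reads of the pair may be shared.

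Cd36 (ENSMUSG00000002944, GRCm38 chr5:17781690-17888801, minus strand), a fatty acid carrier that is also higher in female liver, was at 120.2, 159, 121 and 129 CPM in the combined livers and at 44.1, 47.7, 44.7 and 27.6 CPM in TMEM106B-/- livers. It was at 39.8, 38.8, 24.5 and 32.6 CPM in TDP-43Q331K livers and at 23.96, 20.3, 24.3 and 30.2 CPM in WT livers. The combined livers lay above the other 12, and the change over WT was 2.42 ± 0.19 (adjusted p = 1.36e-06), against 0.73 ± 0.18 and 0.46 ± 0.18 for TMEM106B-/- and TDP-43Q331K, neither called. The product predicts 56.4 CPM and the sum 50.3 CPM, and 132 ± 18.1 CPM was observed (interaction 1.23 ± 0.25, adjusted p = 0.0327). The call was lost in 4 of 16 fits that left out 1 liver, without WT replicate 4, TDP-43Q331K replicate 3 or 4 or replicate 2 of the combined genotype (adjusted p of 0.0574 to 0.0833). Crat, a carnitine acetyltransferase and the only call among 40 fatty acid oxidation and PPAR-alpha genes, was at 63.9, 81.4, 98.8 and 82.1 CPM in the combined livers, 31.9 to 46.8 in TMEM106B-/-, 25.9 to 47.6 in TDP-43Q331K and 37.2 to 48.2 in WT livers. Its interaction was 1.26 ± 0.28 (adjusted p = 0.0464), a call that 12 of 16 such fits lost. The median of that list was 0.17, and 13 of its genes had an unadjusted p under 0.05. DESeq2 called 7 of them above the sum and 1 below, and limma-voom 3 above. Called genes with lipid roles outside these lists, named after their values were seen, went both ways. Acnat2, an acyl-CoA amino acid N-acyltransferase, had an interaction of 1.88 ± 0.36 (adjusted p = 0.0271) and the phospholipase Pla2g12a of 1.14 ± 0.24 (adjusted p = 0.0342). Cept1, which makes phosphatidylcholine and phosphatidylethanolamine, had an interaction of 0.92 ± 0.21 (adjusted p = 0.0491) and the desaturase family member Fads6 of -0.66 ± 0.14 (adjusted p = 0.043).

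None of 23 fatty acid synthesis genes and none of 26 cholesterol genes was called, with medians of -0.17 and -0.16, and edgeR gave an unadjusted p under 0.05 for 2 genes in each list. DESeq2 called 1 fatty acid synthesis gene, below the sum, and limma-voom none. Some rose in the combined livers by about the sum of the log2 changes. Me1, which makes NADPH for fatty acid synthesis, was at 321, 730.5, 685 and 435 CPM in the combined livers, 242 to 371 in TMEM106B-/-, 174 to 287 in TDP-43Q331K and 92.2 to 148 in WT livers. The combined change was 2.19 ± 0.25 (adjusted p = 9.08e-05) and the interaction -0.04 ± 0.34 (adjusted p = 0.967), with 543 ± 197 CPM observed and 559 CPM predicted by the product. The fatty acid elongase Elovl5 averaged 869.6 ± 259 CPM in the combined livers, against 844 CPM predicted by the product and 596 CPM by the sum (interaction 0.04 ± 0.34, adjusted p = 0.966). Pgd of the pentose phosphate pathway had an interaction of 0.03 ± 0.22 (adjusted p = 0.96). Of 85 genes called in the combined and TMEM106B-/- livers over WT with a log2 change of 1 or more in the combined livers, these 3 and Sc5d, Acat2, Tbc1d31, H2-Q1 and Ajuba had the interactions nearest 0. An adjusted p near 1 does not show that a gene was strictly additive. For Scd1, the stearoyl-CoA desaturase, the combined livers averaged 11289 ± 3017 CPM, against 23785 CPM predicted by the product and 14565 CPM by the sum (interaction -1.08 ± 0.37, adjusted p = 0.172).

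Transcripts of other roles were high or low in all 4 combined livers. In 23 of the 57 positive genes all 4 combined livers lay above the other 12 (1.55% of all genes tested), and in 22 of the 58 negative genes all lay below (0.952%). The same libraries gave the calls, so these counts describe the called genes. Tceal8 (ENSMUSG00000051579, GRCm38 chrX:136168984-136172342, minus strand), an elongation factor-like protein listed with injury-linked genes, was at 32.4, 32.7, 13.9 and 25.4 CPM in the combined livers and at 4.67, 6.897, 5.83 and 4.96 CPM in TMEM106B-/- livers. It was at 4.296, 4.098, 3.26 and 3.35 CPM in TDP-43Q331K livers and at 4.45, 4.57, 3.97 and 4.82 CPM in WT livers. Its interaction was 2.47 ± 0.30 (adjusted p = 0.00116), with 4.71 CPM predicted by the product and 4.88 by the sum. Of 26 genes of the injury list, Tceal8 and Ly6d were called, both above the sum, and the list's median was 0.54. This list too was chosen with earlier results of these data known, so its calls are no evidence of injury. DESeq2 called 8 and limma-voom 3 of the list, all above the sum. Ly6d, a GPI-anchored surface protein, was at 11.6, 15.8, 5.51 and 3.75 CPM in the combined livers and at 0.452 to 2.39 CPM in the other 12 (interaction 3.54 ± 0.71, adjusted p = 0.0327), a call that 11 of 16 fits with 1 liver left out lost.

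Nt5e, the ectonucleotidase CD73 that makes adenosine, was at 12.7, 10.1, 9.56 and 5.52 CPM in the combined livers, 1.39 to 3.11 in TMEM106B-/-, 0.819 to 1.66 in TDP-43Q331K and 1.51 to 2.73 in WT livers. Its interaction was 2.59 ± 0.41 (adjusted p = 0.00824). Serinc2, a multipass membrane protein, was at 18.1, 16.6, 14.6 and 15.4 CPM in the combined livers, 6.82 to 10.3 in TMEM106B-/-, 6.22 to 7.29 in TDP-43Q331K and 7.64 to 9.03 in WT livers (interaction 1.10 ± 0.18, adjusted p = 0.011). Wfdc2, a secreted protein of the whey acidic protein family, was at 10.1, 23.9, 11.4 and 11.4 CPM in the combined livers, with all 8 single-change livers (3.69 to 5.51 CPM) below WT (5.71 to 6.88 CPM). Its interaction was 2.20 ± 0.31 (adjusted p = 0.00385). Rad51b, a DNA repair protein, was at 7.95, 9.097, 4.32 and 3.44 CPM in the combined livers and at 0.309 to 3.17 CPM in the other 12 (interaction 4.55 ± 0.71, adjusted p = 0.00884). Gprc5b, a G protein-coupled receptor, was at 4.32, 14.99, 9.28 and 11.03 CPM in the combined livers and at 0.218 to 1.42 CPM in the others (interaction 3.16 ± 0.68, adjusted p = 0.0448), and it was named after its values were seen. Named in the same way, Atp2b2, a plasma membrane calcium pump, had 6.63, 13.6, 8.06 and 5.23 CPM in the combined livers against 1.06 to 2.85 CPM in the others (interaction 2.42 ± 0.48, adjusted p = 0.0289), and Rcan2, a calcineurin inhibitor, had 12.8, 9.84, 7.85 and 7.84 CPM against 2.47 to 4.63 CPM (interaction 1.31 ± 0.28, adjusted p = 0.0342).

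Below the other 12 livers lay Capn8, a calpain protease, at 1.395, 1.33, 2.699 and 1.398 CPM in the combined livers, 4.73 to 10.9 in TMEM106B-/-, 5.37 to 13.8 in TDP-43Q331K and 3.05 to 5.36 in WT livers. The single-change livers had fitted levels above WT, and the interaction was -3.34 ± 0.49 (adjusted p = 0.00542). The following genes were named after their values were seen. Adgrf1, an adhesion G protein-coupled receptor, was at 0.496, 0.226, 0.951 and 0.293 CPM in the combined livers, against 2.29 to 7.28 CPM in the others (interaction -3.43 ± 0.59, adjusted p = 0.0128). Plxnb1, a semaphorin receptor, was at 46.9, 53.3, 43.7 and 55.4 CPM in the combined livers and at 75.9 to 153 CPM in the others (interaction -1.29 ± 0.23, adjusted p = 0.0134). Irf5, an interferon regulatory factor, was at 5.15, 4.47, 4.09 and 3.88 CPM in the combined livers and at 7.86 to 14.3 CPM in the others (interaction -0.89 ± 0.18, adjusted p = 0.0327), while none of 23 interferon-stimulated genes was called (median 0.29, 6 with an unadjusted p under 0.05, 3 called by DESeq2 and none by limma-voom). Irf5 overlaps Tnpo3 on the other strand, so its reads may be shared. Other genes described here overlap a gene on the other strand too, with the same limit. Among them are Hsd3b5 (Zfp697), Dnase2a (Mast1), Omd (Cenpp), Crat (Dolpp1), Cept1 (Dennd2d and Dram2), Gprc5b (Iqck) and Egfl7 (Agpat2).

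A smaller set of called genes separated the 8 single-change livers from the 8 combined and WT livers. In 9 positive genes all combined and WT livers lay above all single-change livers (0.0898% of all genes tested), and in 6 negative genes all lay below (0.0718%). The 9 were Wfdc2, Dnase2a, Praf2, Tuba8, Mab21l2, Selenow, 2810025M15Rik, Hist1h4b and Prcp, and the 6 were Mpv17l, Trim44, Dock5, Hs3st3b1, F11 and Gins1. Mpv17l (ENSMUSG00000022679, GRCm38 chr16:13903161-13949619, plus strand), a mitochondrial and peroxisomal membrane protein, was at 18.5, 14.8, 15.9 and 19.97 CPM in the combined livers and at 24.6, 35.3, 32.2 and 25.7 CPM in TMEM106B-/- livers. It was at 30.3, 35.3, 38.2 and 37.2 CPM in TDP-43Q331K livers and at 18.6, 10.7, 19.1 and 23.5 CPM in WT livers. The change over WT was -0.06 ± 0.19 in the combined livers (adjusted p = 0.895), 0.71 ± 0.19 in TMEM106B-/- (adjusted p = 0.0775) and 0.97 ± 0.19 in TDP-43Q331K livers (adjusted p = 0.0444). The interaction was -1.74 ± 0.26 (adjusted p = 0.00542), and it was called in all 25 alternative fits.

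Trim44, a tripartite motif protein, differed little between livers of a group, at 30.8, 32.3, 31.8 and 31.04 CPM in the combined livers and 37.1, 36.4, 34.1 and 37.2 CPM in TMEM106B-/- livers. It was at 37.7, 34.2, 36.6 and 35 CPM in TDP-43Q331K livers and at 25.9, 26.2, 24.5 and 25.8 CPM in WT livers. It rose over WT in all 3 mutant groups, by 0.30 ± 0.07 in the combined livers (adjusted p = 0.0222), 0.50 ± 0.07 in TMEM106B-/- (adjusted p = 0.00331) and 0.49 ± 0.07 in TDP-43Q331K livers (adjusted p = 0.0111). The combined rise was thus smaller than either single one, with an interaction of -0.69 ± 0.10 (adjusted p = 0.00542). F11, coagulation factor XI, was at 53.98, 46.8, 43.4 and 52.4 CPM in the combined livers, 64.4 to 107 in the single-change livers and 50.9 to 64.02 in WT livers (interaction -1.22 ± 0.22, adjusted p = 0.0149). Dock5, a Rac activator, was at 14.7, 14.9, 15.5 and 16.5 CPM in the combined livers, 18.02 to 22.5 in the single-change livers and 15.4 to 18 in WT livers (interaction -0.75 ± 0.13, adjusted p = 0.0111).

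In the other direction, Dnase2a (ENSMUSG00000003812, GRCm38 chr8:84908560-84922915, plus strand), the acid nuclease of lysosomes, was at 30.2, 38.3, 30.9 and 33.5 CPM in the combined livers and at 26.2, 22.4, 25.1 and 26.1 CPM in TMEM106B-/- livers. It was at 22.9, 22.1, 23.9 and 21.99 CPM in TDP-43Q331K livers and at 36.6, 40.6, 32.9 and 26.3 CPM in WT livers. The single-change livers were low and the combined livers overlapped WT, with an interaction of 0.998 ± 0.17 (adjusted p = 0.0111). Praf2, a membrane protein of the secretory pathway, was at 1.19, 0.994, 1.33 and 1.19 CPM in the combined livers, 0.5098 to 0.981 in the single-change livers and 1.48 to 2.07 in WT livers (interaction 1.68 ± 0.29, adjusted p = 0.0121), so the combined livers lay between. For Praf2, Tuba8, Rad51b, Rgs1 and Renbp the sum of the differences in CPM predicts a level under 0, which no transcript can have. Renbp, a renin-binding epimerase, was at 3.89, 7.03, 3.697 and 3.49 CPM in the combined livers, 2.496 to 3.58 in the single-change livers and 5.81 to 9.08 in WT livers (interaction 1.94 ± 0.31, adjusted p = 0.00824). Reep5, which shapes the endoplasmic reticulum, was at 13.6, 18.4, 14.5 and 14.1 CPM in the combined livers, 11.4 to 15.5 in TMEM106B-/-, 9.45 to 11 in TDP-43Q331K and 17.1 to 18.8 in WT livers (interaction 0.997 ± 0.16, adjusted p = 0.00897).

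**Figure D3:**
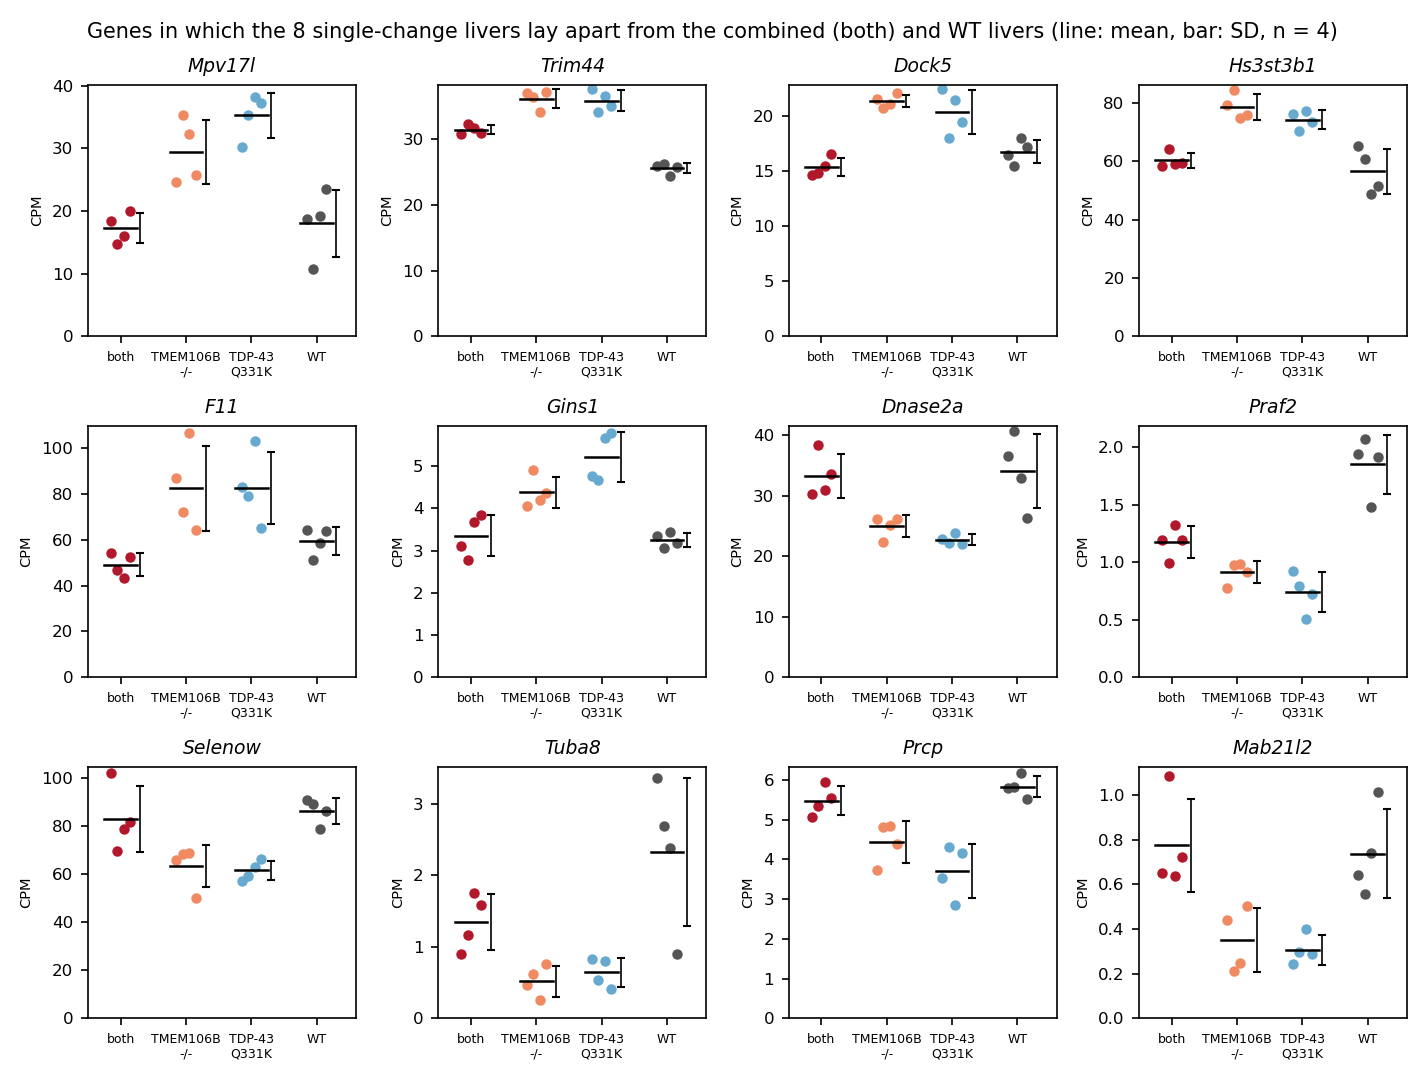
CPM of 12 called genes in each liver, with TMEM106B-/-TDP-43Q331K (both), TMEM106B-/-, TDP-43Q331K and WT from left to right; points are libraries, lines are means and bars are SD (n = 4). In the first 6 genes the 8 single-change livers lie above the combined and WT livers, and in the other 6 they lie below them.

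A score of markers of other liver cells, put together after the data were seen, also separated the 8 single-change livers from the other 8. A score of 25 markers (Kupffer cell, sinusoidal endothelium and red blood cell, mean log2 CPM minus the WT mean) ran from -0.244 to 0.00883 in the combined livers, -0.484 to -0.366 in TMEM106B-/-, -0.612 to -0.371 in TDP-43Q331K and -0.244 to 0.319 in WT livers. Every single-change liver was below every combined and WT liver. The lists in the score had positive median interactions, which set these same groups apart. The separation therefore describes the livers and is no further evidence. In bulk tissue, fewer cells of a type and less RNA per cell cannot be told apart. All 11 Kupffer cell markers (median interaction 0.73), all 9 endothelial markers (0.64) and 4 of 5 red blood cell markers (1.46) had positive interactions. None was called by edgeR, which gave an unadjusted p under 0.05 for 6, 5 and 4 of them. DESeq2 and limma-voom each called 2 endothelial and 3 red blood cell markers above the sum, and no Kupffer cell marker. The summed level of the Kupffer markers was 189.5 to 297 CPM in the combined livers, 170.5 to 248 in TMEM106B-/-, 128 to 214 in TDP-43Q331K and 194 to 394 in WT livers. That of the endothelial markers was 194 to 239 CPM in the combined livers, 163 to 201 in TMEM106B-/-, 194 to 227 in TDP-43Q331K and 212 to 288 in WT livers. The summed red blood cell markers overlapped between all groups. They were at 96.3 to 149.5 CPM in the combined livers, 87.5 to 125.4 in TMEM106B-/-, 106.4 to 129.9 in TDP-43Q331K and 96.7 to 131 in WT livers. The 6 hepatocyte markers had a median interaction of -0.36, the 9 stellate cell and fibroblast markers of 0.44 and the 5 bile duct markers of -0.24. The median was 0.66 for 7 T and B lymphocyte markers, 0.45 for 4 neutrophil and monocyte markers and 0.73 for 5 dividing cell markers. DESeq2 and limma-voom each called 1 hepatocyte marker, below the sum, and DESeq2 called 1 lymphocyte marker, also below. Among called genes, Egfl7 and Gpihbp1 are known from endothelium and Rgs1 from lymphocytes, all named after their values were seen. Egfl7 was at 20.4 to 25.2 CPM in the combined livers, 14.8 to 21.05 in the single-change livers and 20.9 to 31.6 in WT livers (interaction 0.90 ± 0.19, adjusted p = 0.0369). Gpihbp1, the anchor of lipoprotein lipase on capillaries, was at 7.25 to 10.6 CPM in the combined livers, 5 to 7.45 in the single-change livers and 7.29 to 9.43 in WT livers (interaction 1.03 ± 0.21, adjusted p = 0.0314).

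With the marker score as a covariate, a fit added after the data were seen, 38 genes were called and 8 of the 115 stayed called: Hsd3b5, Gm3839, Clic5, Mpv17l, Dnase2a, Tuba8, Pla2g12a and Cept1. All 115 kept their sign, and the median ratio of the interaction with to that without the score was 1.04 (0.14 to 1.87). The standard errors grew by a median factor of 1.77 over the 115 genes and 1.78 over all genes. Over the 45 genes in which the combined livers lay outside the other 12 the median ratio was 0.933, and over the 15 genes that separate the single-change livers it was 1.04. Atp2b2 and Rad51b lost most, with interactions of 0.34 and 1.01 beside the score. Because the score follows the groups, the part of these cells in the remaining calls cannot be told apart from the genotypes.

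**Figure D4:**
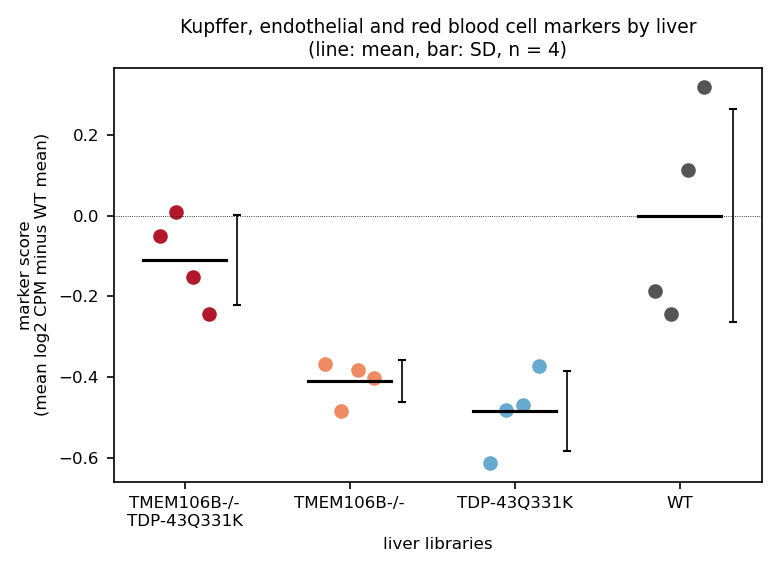
Score of Kupffer cell, endothelial and red blood cell markers (mean log2 CPM of 25 markers minus the WT mean) for TMEM106B-/-TDP-43Q331K, TMEM106B-/-, TDP-43Q331K and WT livers from left to right; points are libraries, lines are means and bars are SD (n = 4). The single-change livers lie from -0.612 to -0.366 and the combined and WT livers from -0.244 to 0.319.

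The lists of stress, lysosomal and clock genes gave few calls. Among 34 genes of ATF4 signalling and endoplasmic reticulum stress, 29 had positive interactions with a median of 0.73, and none was called by edgeR (8 with an unadjusted p under 0.05). DESeq2 called 4 and limma-voom 1, all above the sum. Gdf15, a stress-induced cytokine, was at 18.01, 53.8, 29.5 and 7.63 CPM in the combined livers, 1.53 to 5.06 in TMEM106B-/-, 4.38 to 6.06 in TDP-43Q331K and 2.98 to 7.65 in WT livers (interaction 2.82 ± 0.71, adjusted p = 0.0926). Among 50 lysosome and autophagy genes, the class to which TMEM106B belongs, only Map1lc3a, an LC3 protein of autophagosomes, was called by edgeR, the median was 0.19 and 12 had an unadjusted p under 0.05. DESeq2 called 3 and limma-voom 2, all above the sum. The list does not hold every lysosomal gene: Dnase2a, the lysosomal nuclease described above, is not in it and was called above the sum. Map1lc3a was at 46.7, 46.9, 46.03 and 53.1 CPM in the combined livers, 33.6 to 45.1 in TMEM106B-/-, 26.3 to 34.5 in TDP-43Q331K and 42.5 to 51.7 in WT livers (interaction 0.86 ± 0.16, adjusted p = 0.017). Of 21 clock genes, 7 had positive interactions, the median was -0.46 and 9 had an unadjusted p under 0.05. DESeq2 called 2 above the sum and 4 below, and limma-voom 1 above and 1 below. EdgeR called Clock alone, against the direction of the median, at 22.8, 24.7, 18.4 and 17.4 CPM in the combined livers, 11.96 to 16.3 in TMEM106B-/-, 15.1 to 16.8 in TDP-43Q331K and 16.1 to 27.6 in WT livers (interaction 0.96 ± 0.21, adjusted p = 0.0464), and 13 of 16 fits with 1 liver left out lost it. Cry2 of the same list lay just outside the threshold, with the sign of the median (interaction -1.23 ± 0.28, adjusted p = 0.0506). The labels give no time of day for the livers.

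The remaining lists gave no call beyond genes already named. Among 29 CAR and PXR targets the calls were Cyp2b9 and Cyp2b13 (median 0.04), while DESeq2 called 5 and limma-voom 1, all above the sum. EdgeR called none among 26 NRF2 targets (median 0.20), 26 bile acid genes (-0.18), 27 genes of gluconeogenesis, glycolysis and insulin signalling (-0.05), 28 acute phase genes (0.22) or 29 RNA-binding protein and ALS genes (-0.06). An unadjusted p under 0.05 was given to 8, 4, 5, 1 and 7 genes of these lists in that order, DESeq2 called 3, 0, 2, 0 and 1 of them and limma-voom 1, 0, 0, 0 and 1. Hmox1, the heme oxygenase of the NRF2 list, was at 16.3, 18.5, 12.9 and 10.6 CPM in the combined livers, 5.904 to 12.3 in TMEM106B-/-, 6.49 to 6.95 in TDP-43Q331K and 8.55 to 13.5 in WT livers (interaction 1.27 ± 0.29, adjusted p = 0.0566). At the threshold, Cept1 and Gm31508 lay inside (adjusted p = 0.0491 for both), as did Gm42067 (0.0495), while Cib3 (0.0505), Cry2 and Gm43138 (both 0.0506) lay outside.

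**Figure D5:**
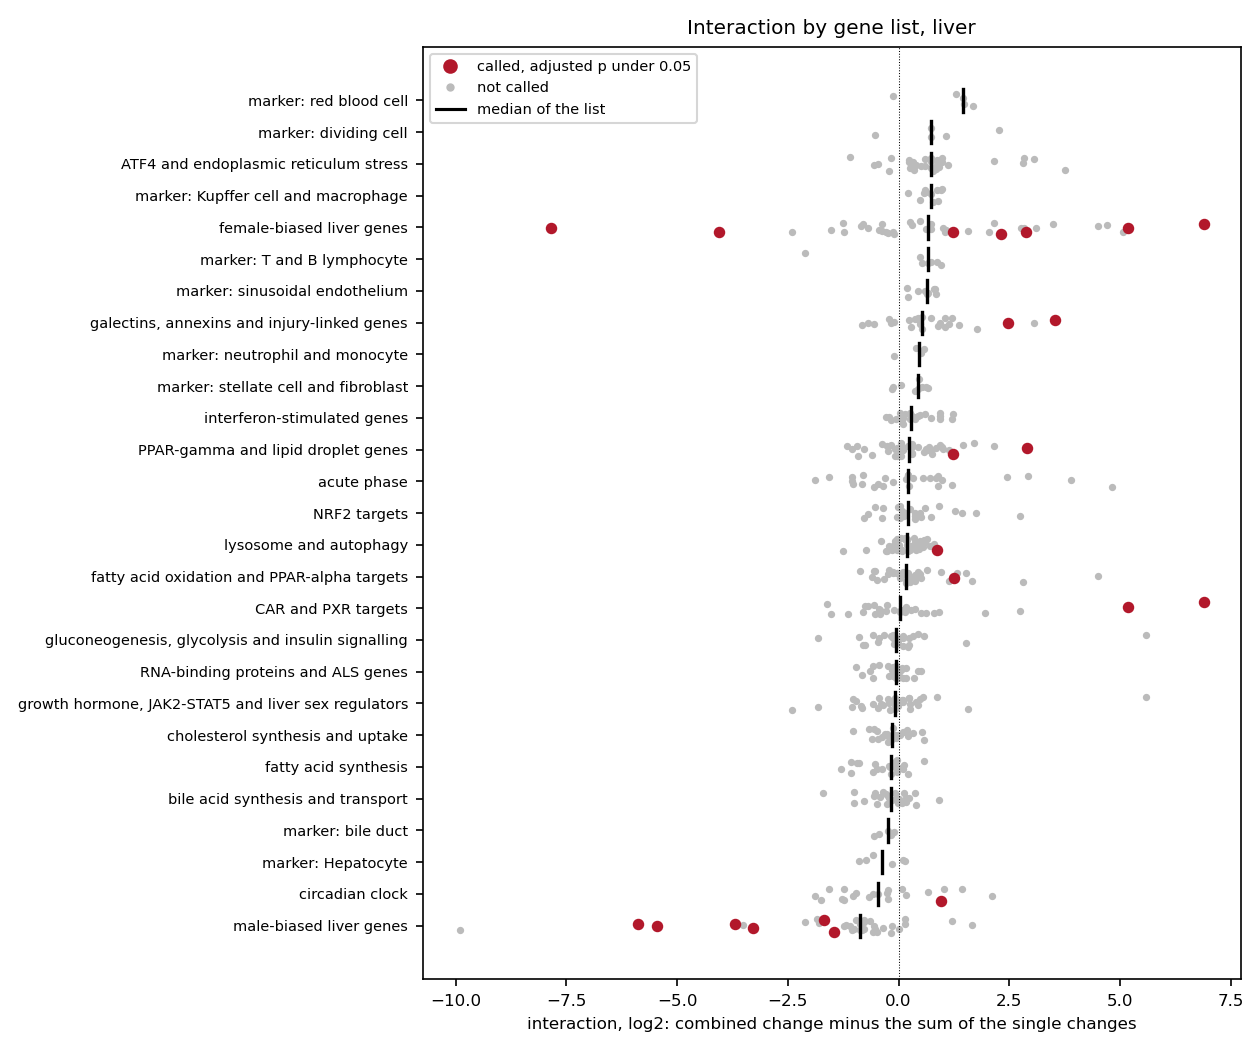
Interaction (log2) of each tested gene by gene list, ordered by the list median; red points were called (adjusted p under 0.05), grey points were not, and bars are medians. The male-biased list has the lowest median (-0.86) and 6 red points, all negative, and the female-biased list has red points on both sides of 0.

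The called genes were also described by sequence and by tissue. The longest annotated transcript had a median of 2152 bases in positive genes, 2900 in negative genes and 2992 over all genes, and the GC content was 50.9, 47.8 and 49.3% in the same order. Protein-coding genes made up 51 of the 57 positive and 49 of the 58 negative genes. RefSeq promoters of 300 bases on GRCm38.p6 matched 79 of the 115. A STAT5-type TTCNNNGAA, searched on both strands, was in none of 42 positive and 1 of 37 negative promoters (Stx17), against 7.05% of 11513 promoters of tested genes. The SREBP motif TCACNCCAC was in 1 of 42 and 1 of 37, against 1.15%, and the E box CACGTG in 3 of 42 and 3 of 37, against 9.82%. Such letters describe these windows alone.

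In cortex, where 81 of the 115 genes passed the filter on low counts, no gene of 21248 was called for the interaction (0%), and edgeR gave an unadjusted p under 0.05 for 972 of them (4.57%). DESeq2 and limma-voom called none there either. No member was called there, 6 of the 81 had an unadjusted p under 0.05, and 40 had the sign they had in liver. The median cortex interaction was 0.04 for genes positive in liver and 0.01 for genes negative in liver. The spread between libraries was smaller in cortex, with a common biological coefficient of variation of 0.103 against 0.235 in liver. Whether the interaction differed between the tissues was not tested.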

How the data were processed

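Per the labels' protocols, total RNA was extracted with Trizol and a directional kit made the RNA-seq libraries. Per the submitters' processing notes, Trim Galore, cutadapt and FastQC were used and the builds were GRCm38 and mm10; for the aligner, counting program and strand setting nothing is given in the sources used here. The deposited values were whole-number counts per gene (55536 genes), not normalized by the authors. The cortex table held 1 column with no matching sample, which was not used. Replicates of a group differed by more than sampling noise.

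Liver and cortex were fitted apart, each with all 4 genotypes, in edgeR 4.0.16 (R 4.3.3): filterByExpr (minimum count 10, minimum total 15), TMM scaling and the robust quasi-likelihood test, two-sided, with 12 (liver) and 17 (cortex) residual degrees of freedom and Benjamini-Hochberg adjustment over all genes of a tissue. CPM used TMM-scaled library sizes. Depth set less of the precision than the spread between libraries did. The pipeline was tested on simulated liver counts. Alternatives were RLE scaling, no filter, DESeq2 1.42.0, limma-voom with quality weights (limma 3.58.1), a block for replicate number, sva 3.50.0 with 1 surrogate variable, the interaction on the linear CPM scale in limma, and each library left out in turn. Leaving out the 3 livers with high acute phase transcripts and the marker score as covariate were added after seeing the data.

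The comparison, gene lists and members were chosen with earlier results of these data known. The text names genes by a rule: the genes of both altered proteins, in each direction the 15 called genes of smallest p, called members of each list or else its 2 members with the smallest p, and 8 genes with interactions nearest 0; of these 70 genes a part is given, and genes outside the rule are named as chosen after their values were seen or because their libraries lay apart.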

Additional observations from a re-analysis of the deposited data

Results flagged for a closer look

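In 14 of 280 tests (70 genes in 4 groups of 4 livers) 1 liver lay far from the other 3 of its group by Dixon's test, which chance alone flags in about 1 of 20 groups. Among called genes, Wfdc2 was at 23.9 CPM in replicate 2 of the combined genotype (others 10.1 to 11.4), and Renbp at 7.03 CPM in the same liver (others 3.49 to 3.89). Replicate 3 of the combined genotype had 2.70 CPM of Capn8 (others 1.33 to 1.40) and 9.87 CPM of Ntrk2 (others 5.15 to 5.59). TMEM106B-/- replicate 3 had 15.4 CPM of Ntrk2 (others 4.02 to 5.07). TMEM106B-/- replicate 1 had 0.189 CPM of Cyp2b13 (others 0 to 0.0132), and replicate 4 of the combined genotype had 53.1 CPM of Map1lc3a (others 46.0 to 46.9). Wfdc2, Renbp, Capn8, Ntrk2 and Map1lc3a stayed called without any single liver, and Cyp2b13 did not.

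Among genes not called for the interaction, Scd1 was at 7605 CPM in TMEM106B-/- replicate 1 (others 11230 to 11690) and at 4595 CPM in WT replicate 1 (others 2675 to 2858). Ajuba was at 5.62 CPM in TDP-43Q331K replicate 2 (others 6.35 to 6.48). In WT livers, Igfbp1 was at 338 CPM in replicate 2 (others 2.90 to 21.1), Pgd at 28.9 CPM in replicate 2 (others 39.4 to 41.1), Hamp at 739 CPM in replicate 3 (others 1038 to 1094) and H2-Q1 at 8.37 CPM in replicate 1 (others 4.37 to 4.95).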

How the results depend on the processing

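All 115 called genes kept the sign of their interaction in all 25 alternatives, while the count of calls varied. It was 116 with RLE scaling, 98 without the filter and 102 with 1 surrogate variable. DESeq2 called 600 genes (324 positive, 276 negative), among them all 115, and limma-voom with quality weights 320 (175 positive, 145 negative), among them 103. On the linear CPM scale 44 were called (25 positive, 19 negative), 37 of them shared. With the marker score as a covariate, chosen after seeing the data, 38 were called (19 positive, 19 negative), 8 of them shared. Without the 3 livers with high acute phase transcripts, also chosen after seeing the data, 110 were called, 62 of them shared.

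With each liver left out in turn, 51 to 189 genes were called (20 to 87 positive, 31 to 102 negative). The count moved by over 1.5 times without TDP-43Q331K replicates 1, 2, 3 and 4 (68, 76, 76 and 65), TMEM106B-/- replicate 4 (189) and replicate 2 of the combined genotype (51); the positive count also did so without TMEM106B-/- replicate 2 (35) and replicate 1 of the combined genotype (37). The cause was not tested. Over 24 pairs of same-numbered livers the correlation of deviations ran from -0.21 to 0.28 (median -0.04). Over 72 pairs of unlike number it ran from -0.26 to 0.23 (median 0.02). Same-numbered WT and TDP-43Q331K livers all had positive values (0.23, 0.093, 0.28 and 0.098). In every other pair of genotypes same-numbered livers had values of both signs. A pairing by number was thus neither shown nor excluded. With replicate number as a block 92 genes were called (41 positive, 51 negative), 81 of them shared, and no liver interaction gene was called in cortex (0).

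Over the named genes' interactions, 876 alternative values of called genes kept their side of the threshold, 149 fell short of it with the same sign, and none reversed. In cortex no alternative that kept all libraries called a gene, and leaving out TMEM106B-/- replicate 5 or replicate 4 of the combined genotype called 1 gene each.

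Low counts limit Cyp2b13, Cyp4f39 and other genes under 1 CPM.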
